A study of Homo sapiens with 4 samples.

Results

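The aminoacyl-tRNA synthetase mRNAs examined here are those of 35 nuclear genes, 19 for enzymes of the cytosol and 16 for enzymes of the mitochondrion. They were chosen by gene name, and each was found through its Ensembl identifier in GENCODE v44 among the 63677 genes of the count table. All 35 were present and all 35 passed the count filter, as did 14645 genes in all. The chosen names hold no aspartyl enzyme. RNA came from nuclei of HCT116, a human colorectal carcinoma cell line, 48 h after transfection of pcDNA3.1-ORC1-3xFLAG, a plasmid encoding the replication-origin protein ORC1 with a FLAG tag. For each of 2 RIP replicates, RNA recovered by native immunoprecipitation with the M2 anti-FLAG antibody (IP) was sequenced beside RNA of the nuclear lysate (Input). IP and Input libraries thus share the cell line, the plasmid and the transfection, and the precipitated protein was the transiently overexpressed one. With no control antibody and no untransfected cells among the 4 libraries, the comparison asks which RNAs were recovered more, and which less, with ORC1-FLAG than they were present in the nuclear lysate.

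Aminoacyl-tRNA synthetases join each amino acid to its tRNA before translation. Cytosolic enzymes serve the ribosomes of the cytosol, whereas the mitochondrial enzymes are encoded in the nucleus, made in the cytosol and imported to charge the tRNAs of the mitochondrial genome. GARS1 and KARS1 each provide both compartments from a single gene, EPRS1 charges both glutamate and proline tRNAs in the cytosol, and FARSA and FARSB are the subunits of one phenylalanyl enzyme. The enzymes fall into class I and class II by the fold of their catalytic domain. Several cytosolic enzymes sit in the multisynthetase complex on the scaffold proteins AIMP1, AIMP2 and EEF1E1. The measurements below concern the mRNAs in nuclei, not the enzymes.

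The IP libraries held 27483148 and 20280445 counts and the Inputs 14677002 and 9213877, so that the IP libraries were the deeper ones and the part of depth in the results was not tested. ORC1 itself had 1108 and 18551 CPM (counts relative to library size, corrected with edgeR's TMM factors) in IP replicates 1 and 2 and 333 and 5063 CPM in the Inputs. Its log2 fold change was 1.87 ± 1.42 (edgeR adjusted p = 0.374), and plasmid and chromosomal ORC1 RNA were not separated. The paper describes the ORC1 sequence of the plasmid as codon-optimized, and how its reads aligned was not tested. The 5 epithelial markers EPCAM, KRT8, KRT18, KRT19 and CDH1 summed to 2313 and 2526 CPM in Input and to 4510.0 and 4127 CPM in IP. Of these, 0 of 5 were called by edgeR, DESeq2 or limma voom, and 3 had an unadjusted edgeR p below 0.05. Over all genes tested edgeR called 10.5% enriched and 8.30% depleted, by the rule given below. Of all genes tested 22.9% had an adjusted p below 0.05. The share below 0.05 without adjustment is therefore at least 22.9%. Its exact value was not counted, so counts by unadjusted p, here and below, cannot be read as above it. A call in this list appeared only without IP replicate 2 or without Input replicate 2. In a fit that pairs IP and Input of the same number, KRT8, KRT18, KRT19 and CDH1 passed the p threshold. Their edgeR adjusted p values were 0.00064 to 0.00099. That of EPCAM was 0.101, and 54.3% of all genes passed. The 4 markers of other cell types summed to between 7.90 and 27.0 CPM. PECAM1 was listed at 0 in all libraries, PTPRC did not exceed 0.0480 CPM and ALB did not exceed 0.228 CPM. COL1A1 made up nearly all of this sum and was itself enriched, at a log2 fold change of 1.38 ± 0.27 (edgeR adjusted p = 0.0170), and its part in the results was not tested.

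Cytosolic synthetase mRNAs were recovered with ORC1-FLAG above their Input level. Of the 19, 11 were called enriched and 0 depleted, where a call required an edgeR adjusted p below 0.05 over all genes together with a log2 fold change above 1 for enrichment or below -1 for depletion. Values after ± are standard errors of the edgeR fit, with 2 libraries in each group. Over all 14645 genes tested, 10.5% were enriched and 8.30% depleted, and over protein-coding genes 11.9% and 8.25%. By adjusted p alone 12 of the 19 passed, against 22.9% of all genes, and with the replicate block, a fit that pairs IP and Input of the same number, 19 of 19 cytosolic and 9 of 16 mitochondrial mRNAs did, against 54.3%. All 19 had a positive log2 fold change, from 0.45 for RARS1 to 2.04 for EPRS1, with a median of 1.14. Of all genes tested 50.3% lay above 0, with a median of 0.0079. In each of the 19, both IP libraries lay above both Input libraries, a pattern found in 33.2% of all genes tested. The median ratio between IP and Input (log2, after adding 0.5 CPM to each) was 1.20 in replicate 1 and 1.04 in replicate 2. Both ratios were positive in all 19, against 42.9% of all genes, and both were above 1 in 10 of the 19, against 8.95%. Summed over the 19 genes, the level was 11265 and 9632 CPM in IP, against 4617 and 4441 CPM in Input. The number of cytosolic calls rested on Input replicate 2, without which 7 of the 19 were enriched (9.23% of all genes), and on the scaling. With library size alone 2 of the 19 were enriched, EPRS1 and LARS1, against 2.59% of all genes.

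Mitochondrial synthetase mRNAs were spread around 0. Of the 16, 2 were enriched, LARS2 and AARS2, 1 was depleted, NARS2, and 13 were not called. Their log2 fold changes ran from -1.11 to 1.23 with a median of 0.071, 8 above and 8 below 0. Median replicate ratios were 0.19 and 0.15 on the log2 scale. In 8 genes both IP libraries lay above both Inputs, in 4 both lay below, against 31.9% of all genes, and in the other 4 the groups overlapped. The summed level was 955 and 747 CPM in IP, against 697 and 712 CPM in Input. The share of mitochondrial enzymes enriched, 12.5%, was near that of all genes, and the share of cytosolic enzymes, 57.9%, was well above it. That share varied with Input level per kilobase and coding length. Over protein-coding genes it was 4.06% in the lowest and 19.4% in the highest decile of Input level. The highest held 17 cytosolic and 1 mitochondrial enzyme. By coding length it was 1.43% in the shortest and 46.5% in the longest decile. No test was run on either list. With library size alone 0 of the 16 were enriched and 2 depleted, where 22.2% of all genes were depleted. With upper-quartile scaling 1 of the 16 was enriched, against 7.37% of all genes. NARS2 was not called without IP replicate 1 or without Input replicate 1.

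The ratio of IP to Input was the higher one in replicate 1 for 27 of the 35 genes (15 cytosolic and 12 mitochondrial), and for 56.6% of all genes tested. The cytosolic genes with the higher ratio in replicate 2 were EPRS1, FARSB, NARS1 and TARS1. The replicates differ in ORC1, as given above, and the part of that difference in the ratios was not tested. IARS1 was the enriched cytosolic gene without a ratio above 1 in both replicates, at 0.99 in replicate 2.

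**Figure D1:**
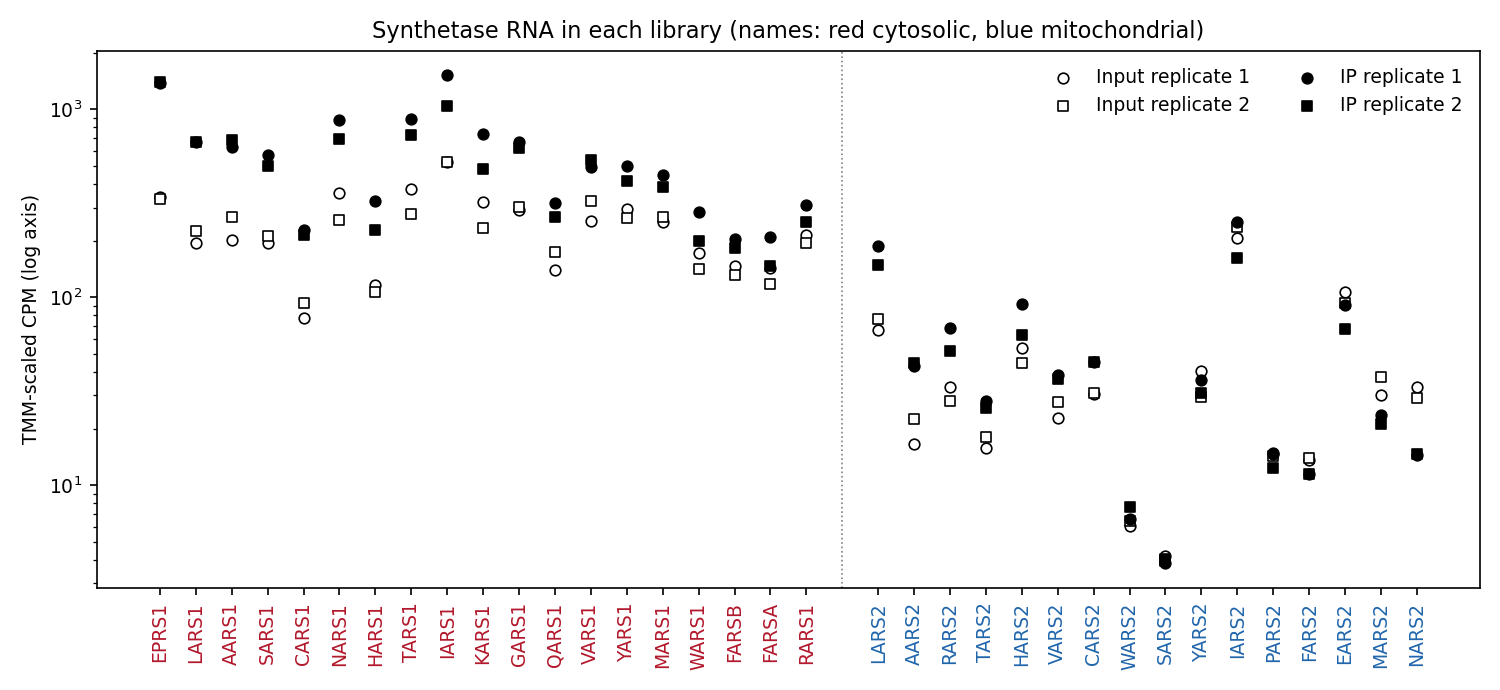
TMM-scaled CPM of each synthetase gene in the 2 Input libraries (open symbols) and the 2 IP libraries (filled symbols), on a log axis, with cytosolic enzymes on the left and mitochondrial enzymes on the right, each ordered by log2 fold change. In all 19 cytosolic genes the filled symbols lie above the open ones, from EPRS1 at the left to RARS1.

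**Figure D2:**
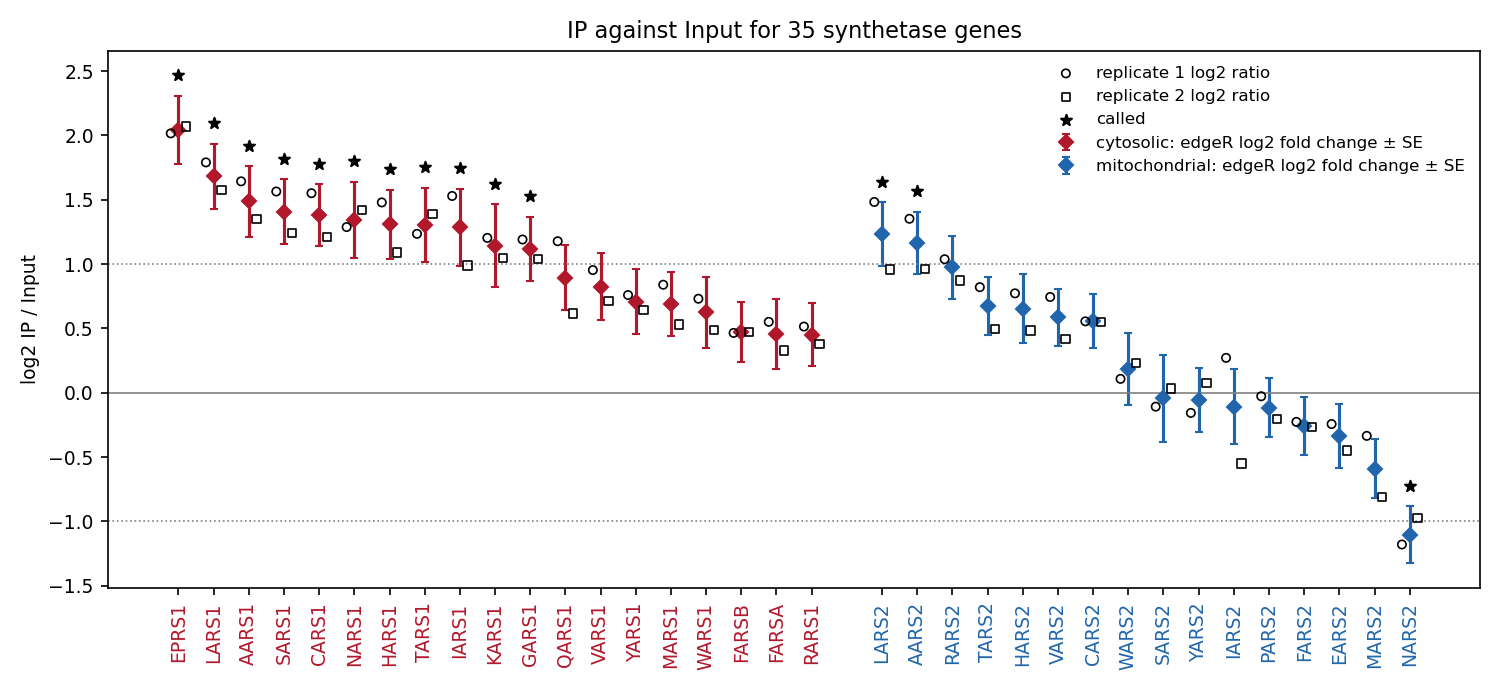
The edgeR log2 fold change of IP over Input with its standard error (diamonds and bars) and the ratio in each replicate (open symbols), with stars for the 14 genes called and dotted lines at 1 and -1. Cytosolic enzymes run from 2.04 to 0.45 and mitochondrial enzymes from 1.23 to -1.11.

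Among the 7 listed enzymes of the multisynthetase complex, 4 were enriched. EPRS1, the glutamyl-prolyl enzyme (minus strand of chromosome 1, 219968600 to 220046530 on GRCh38), had 1380.0 and 1404 CPM in the IP libraries, against 341 and 334 CPM in the Inputs. Both IP libraries were thus far above either Input, and the ratios were 2.02 in replicate 1 and 2.07 in replicate 2. Its log2 fold change was 2.04 ± 0.26 (edgeR adjusted p = 0.0105), the largest of the 35, at rank 140 of all genes tested. LARS1, the leucyl enzyme, which also reports leucine to the growth pathway of mTORC1, had 671 and 668 CPM in the IP libraries, against 194 and 224 CPM in the Inputs. Its log2 fold change was 1.68 ± 0.25 (edgeR adjusted p = 0.0109), and the groups lay well apart. EPRS1 and LARS1 were called in all 12 alternative fits.

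IARS1, the isoleucyl enzyme, reached 1519 and 1035 CPM after IP, against 526 and 521 CPM in the Inputs. The IP libraries differed from each other while the Inputs were close, and the log2 fold change was 1.29 ± 0.30 (edgeR adjusted p = 0.0261). It was not called without IP replicate 1 (1.03). KARS1, the lysyl enzyme of both compartments, had 742 and 481 CPM after IP, against 322 and 232 CPM in the Inputs, with higher values of replicate 1 in both groups. Its log2 fold change of 1.14 ± 0.32 (edgeR adjusted p = 0.0447) was called in 6 of 12 alternative fits. The fits without a call included those without IP replicate 1 (0.84) and without Input replicate 2 (0.77). In GENCODE v44, 3 annotated pseudogenes carry the name of KARS1 and 2 that of CARS1, and how reads with several alignments were counted is not stated.

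The remaining enzymes of the complex were not called. QARS1, the glutaminyl enzyme, had 317 and 267 CPM after IP, against 139.7 and 174 CPM in the Inputs, and its log2 fold change of 0.90 ± 0.26 (edgeR adjusted p = 0.0456) passed the p threshold but not the fold minimum. MARS1, the methionyl enzyme, had a log2 fold change of 0.69 ± 0.25 (edgeR adjusted p = 0.0839). RARS1, the arginyl enzyme, had the lowest value of the cytosolic group, 0.45 ± 0.25 (edgeR adjusted p = 0.223), with 308 and 252 CPM after IP, against 215 and 194 CPM in the Inputs. Genes of the opposite strand, among them DDIT3, cover 12.4% of the annotated exonic bases of MARS1, and the strand setting of the counting is not stated.

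Outside the complex, 7 of 12 cytosolic enzymes were enriched, 6 of them of class II. AARS1, the alanyl enzyme (minus strand of chromosome 16, 70251983 to 70289707), had 628 and 683 CPM after IP, against 201 and 267 CPM in the Inputs, and its log2 fold change was 1.49 ± 0.27 (edgeR adjusted p = 0.0149). SARS1, the seryl enzyme, had 573 and 499 CPM after IP, against 193 and 211 CPM in the Inputs, with a log2 fold change of 1.41 ± 0.25 (edgeR adjusted p = 0.0140). In both genes the lower IP library lay far above the higher Input. NARS1, the asparaginyl enzyme, had 876 and 691 CPM after IP, against 358 and 258 CPM in the Inputs, with a log2 fold change of 1.35 ± 0.30 (edgeR adjusted p = 0.0225). HARS1, the histidyl enzyme, had 323 and 229 CPM after IP, against 116 and 107 CPM in the Inputs, with a log2 fold change of 1.31 ± 0.27 (edgeR adjusted p = 0.0192). TARS1, the threonyl enzyme, had 889 and 726 CPM after IP, against 378 and 277 CPM in the Inputs, with a log2 fold change of 1.30 ± 0.29 (edgeR adjusted p = 0.0229). In NARS1, HARS1 and TARS1 the 2 groups did not overlap either. NARS1 and TARS1 were not called without Input replicate 2 (0.98 and 0.95).

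GARS1, the glycyl enzyme of both compartments (plus strand of chromosome 7, 30580533 to 30634033), had 669 and 620.5 CPM after IP, against 293 and 301 CPM in the Inputs, with a log2 fold change of 1.12 ± 0.25 (edgeR adjusted p = 0.0226). It was called in 7 of 12 alternative fits and not without IP replicate 1 (1.11) or without Input replicate 2 (0.99). GARS1 and KARS1, the genes that serve both compartments, had the smallest log2 fold changes of the 11 enriched cytosolic genes. Among all 19 cytosolic genes, however, KARS1 was the median, and the 8 not called lay below both. The next enriched gene, IARS1 (1.29 ± 0.30), differed from them by less than these standard errors. CARS1, the cysteinyl enzyme and the only class I enzyme enriched outside the complex, had 229 and 215 CPM after IP, against 77.8 and 92.7 CPM in the Inputs, with a log2 fold change of 1.38 ± 0.24 (edgeR adjusted p = 0.0134).

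The other 5 cytosolic enzymes were not called. The phenylalanyl subunits FARSA and FARSB had nearly the same value, with log2 fold changes of 0.46 ± 0.27 and 0.47 ± 0.23 and edgeR adjusted p values of 0.263 and 0.184. FARSA had 210.2 and 147 CPM after IP, against 143 and 117 CPM in the Inputs, and FARSB had 203 and 182 CPM after IP, against 147 and 131 CPM in the Inputs. VARS1 (valyl), WARS1 (tryptophanyl) and YARS1 (tyrosyl) had log2 fold changes of 0.82, 0.63 and 0.71, with edgeR adjusted p values of 0.0607, 0.144 and 0.0858. By class, 7 of 9 cytosolic class II and 4 of 10 cytosolic class I enzymes were enriched, with medians of 1.30 and 0.86. EPRS1, which charges both glutamate and proline tRNAs, was counted in class I only. Its mitochondrial counterparts fall in different classes, EARS2 (glutamyl) in class I and PARS2 (prolyl) in class II. Among mitochondrial enzymes 1 of 7 class II and 1 of 9 class I enzymes were enriched. The difference between the classes was not tested.

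Of the mitochondrial enzymes, LARS2 (leucyl, plus strand of chromosome 3, 45388561 to 45554726) had 188 and 149 CPM after IP, against 67.0 and 76.4 CPM in the Inputs. Its log2 fold change was 1.23 ± 0.25 (edgeR adjusted p = 0.0179), with ratios of 1.48 in replicate 1 and 0.96 in replicate 2. AARS2, the alanyl enzyme, had 43.2 and 44.5 CPM after IP, against 16.6 and 22.6 CPM in the Inputs, with a log2 fold change of 1.16 ± 0.24 (edgeR adjusted p = 0.0198). It was not called without Input replicate 1 (1.00). RARS2, the arginyl enzyme, with 68.5 and 51.8 CPM after IP, against 33.1 and 28.1 CPM in the Inputs, had a log2 fold change of 0.97 ± 0.25 (edgeR adjusted p = 0.0322), just under the fold minimum. It was called without IP replicate 2 (1.21), without Input replicate 1 (1.14) and in DESeq2 (1.00). In LARS2, AARS2 and RARS2 both IP libraries lay above both Inputs.

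NARS2, the asparaginyl enzyme (minus strand of chromosome 11, 78435620 to 78575194), was the only synthetase mRNA depleted. It had 14.4 and 14.7 CPM after IP, against 33.3 and 29.3 CPM in the Inputs, so that the IP libraries held less than the Inputs. The log2 fold change was -1.11 ± 0.22 (edgeR adjusted p = 0.0179), with ratios of -1.18 in replicate 1 and -0.97 in replicate 2. It was called in 10 of 12 alternative fits and lay at -1.05 without IP replicate 1 and -0.97 without Input replicate 1. MARS2, the methionyl enzyme and a gene of 1 coding exon, had 23.7 and 21.2 CPM after IP, against 30.1 and 37.7 CPM in the Inputs, with a log2 fold change of -0.59 ± 0.23 (edgeR adjusted p = 0.107). It was called depleted with library size alone (-1.20), under which the median of all genes also fell.

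Of the other 11 mitochondrial enzymes, the tyrosyl, prolyl, phenylalanyl, glutamyl, isoleucyl and seryl enzymes lay between -0.34 (EARS2) and -0.044 (SARS2) on the log2 scale. IARS2, the isoleucyl enzyme, differed in direction between replicates, at 0.27 in replicate 1 and -0.55 in replicate 2, with 250.02 and 161 CPM after IP, against 207 and 236 CPM in the Inputs, and its log2 fold change was -0.11 ± 0.29 (edgeR adjusted p = 0.817). HARS2, TARS2, VARS2, CARS2 and WARS2 lay between 0.19 (WARS2) and 0.67 (TARS2), with edgeR adjusted p values from 0.0700 (TARS2) to 0.662 (WARS2). SARS2 had the fewest reads, 80 and 71 counts in IP and 73 and 46 in Input. Another gene of the same strand covers 48.2% of the exonic bases of SARS2 in GENCODE v44, so that the reads of SARS2 may be split between genes. The same-strand gene that covers 63.0% of the exonic bases of VARS2 was not among the genes counted.

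Cognate enzymes compare the compartments for the same amino acid. There were 17 such pairs, in which EPRS1 and FARS2 each appear more than once. The cytosolic mRNA had the higher IP to Input ratio in 16 of 17 pairs in both replicates, with median differences on the log2 scale of 0.78 in replicate 1 and 0.66 in replicate 2. By the edgeR values the largest difference was that of NARS1 over NARS2 (2.45), followed by EPRS1 over EARS2 (2.38), and in replicate 2 the order of these pairs was the opposite. NARS1 exceeded NARS2 by 2.47 and 2.39 in replicates 1 and 2. EPRS1 exceeded EARS2 by 2.26 and 2.52, and PARS2 by 2.04 and 2.27. The exception was the arginyl pair, in which RARS2 lay above RARS1, with differences of -0.52 and -0.49. In the alanyl and valyl pairs the difference was small, at most 0.39 in either replicate. With 2 replicates these differences have no test of their own. They compare genes within a library, where a scaling factor cancels apart from the added 0.5 CPM.

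**Figure D3:**
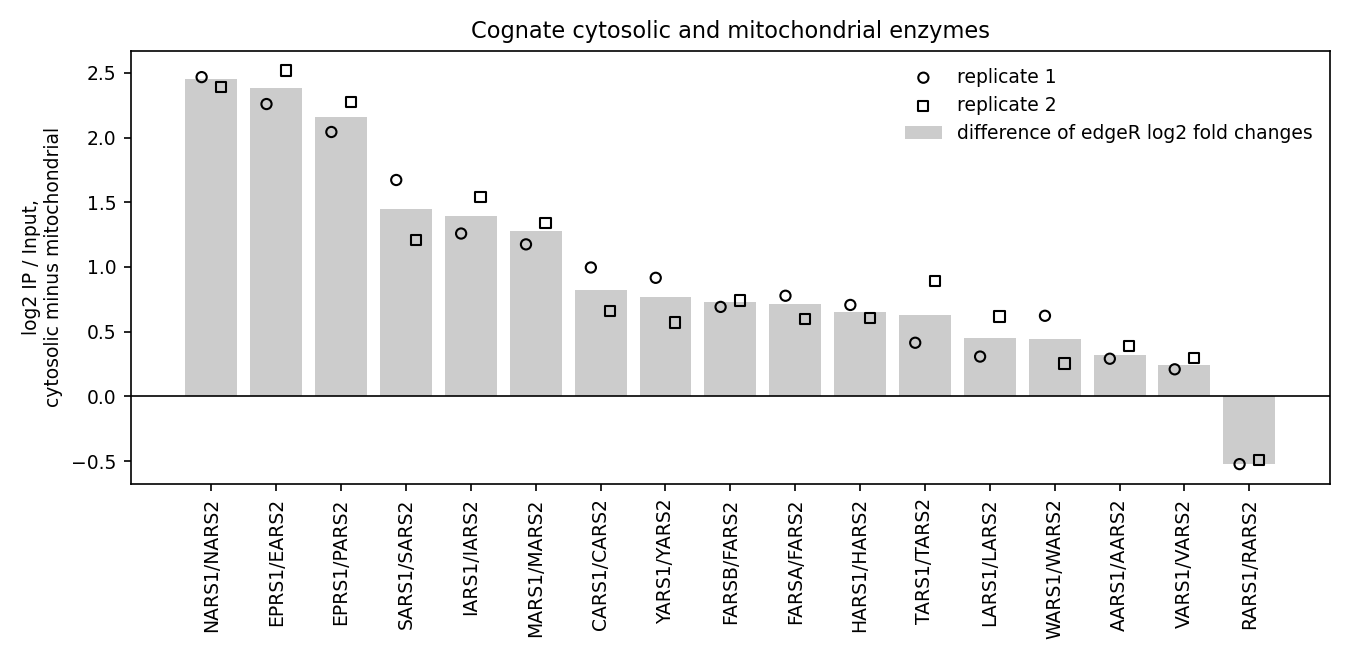
Difference in log2 IP to Input between the cytosolic and the mitochondrial enzyme of each of 17 pairs, as the difference of edgeR log2 fold changes (bars, from 0) and in each replicate (open symbols). All bars but that of RARS1 and RARS2 lie above 0.

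HARS1 and HARS2 lie head to head, with annotated starts 107 bases apart on opposite strands (minus strand of chromosome 5, 140673035 to 140691537, and plus strand of chromosome 5, 140691430 to 140699305). HARS2 had 92.3 and 62.6 CPM after IP, against 53.8 and 44.6 CPM in the Inputs, and its log2 fold change was 0.65 ± 0.27 (edgeR adjusted p = 0.121). The difference between HARS1 and HARS2 on the log2 scale was 0.71 in replicate 1 and 0.61 in replicate 2. Opposite-strand genes, HARS2 included, cover 8.46% of the exonic bases of HARS1. Head-to-head starts were closer still for RARS2, whose start lies 39 bases from that of ORC3, another subunit gene of the origin recognition complex, for EARS2, at 10 bases from UBFD1, for AARS1, at 44 bases from DDX19B, and for FARS2, at 94 bases from LYRM4.

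Cytosolic synthetase mRNAs were also the more abundant ones in the nuclear Input. Per kilobase of the canonical transcript, the mean Input level was 20.6 to 139 CPM in cytosolic enzymes (median 71.9) and 2.11 to 62.7 CPM in mitochondrial enzymes (median 11.8). The median of protein-coding genes tested was 7.22 CPM per kilobase. KARS1 (139), TARS1 (122) and GARS1 (122) had the highest levels per kilobase and FARSB (20.6) the lowest of the cytosolic group. IARS2, at 62.7, was by far the most abundant mitochondrial enzyme. By this measure the cytosolic mRNA was the more abundant in each of the 17 pairs, by 1.86-fold (the isoleucyl and cysteinyl pairs) to 50.04-fold (SARS1 over SARS2). The order depended on the length used. Per kilobase of all annotated exonic bases, IARS1 had 23.3 CPM against 53.6 in IARS2, and HARS1 7.86 against 13.2 in HARS2. HARS1 was then the lowest of the cytosolic group, and GARS1 had 17.1 CPM. Over all 35 genes the log2 fold change and the Input level per kilobase had a Spearman rho of 0.50. Within the 19 cytosolic genes it was -0.075 and within the 16 mitochondrial genes -0.12, so the relation lay between the compartments and not within them. Of the cytosolic genes 17 lay in the top decile of protein-coding genes by Input level, and all 19 exceeded the median log2 fold change of their decile, as did 8 of the 16 mitochondrial genes. Over the 12542 protein-coding genes rho was 0.022. These correlations are across genes of the same 4 libraries, and the Input counts enter both quantities.

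Coding length was compared next, since over the 12542 protein-coding genes it correlated with the log2 fold change (Spearman rho = 0.589). Over the 35 synthetase genes rho was 0.532, with 0.592 in replicate 1 and 0.489 in replicate 2. Within the cytosolic genes it was 0.407 and within the mitochondrial genes 0.459. Median coding length, without the stop codon, was 2169 bases in cytosolic, 1630.5 bases in mitochondrial and 1431 bases in all protein-coding genes. When genes were divided into 10 equal classes of coding length, 18 of 19 cytosolic enzymes lay above the median log2 fold change of their class, the exception being VARS1, and 7 of 16 mitochondrial enzymes did. The median distance from the class median was 0.67 in cytosolic and -0.044 in mitochondrial enzymes. SARS1, NARS1 and HARS1 lay farthest above, with 1.41, 1.35 and 1.31 in a class of 1431 to 1695 coding bases whose median was 0.038. NARS2, at -1.11, lay farthest below, in a class of 1209 to 1431 bases with a median of -0.026. IARS2, with 3036 coding bases, lay at -0.11 in a class whose median was 0.64.

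**Figure D4:**
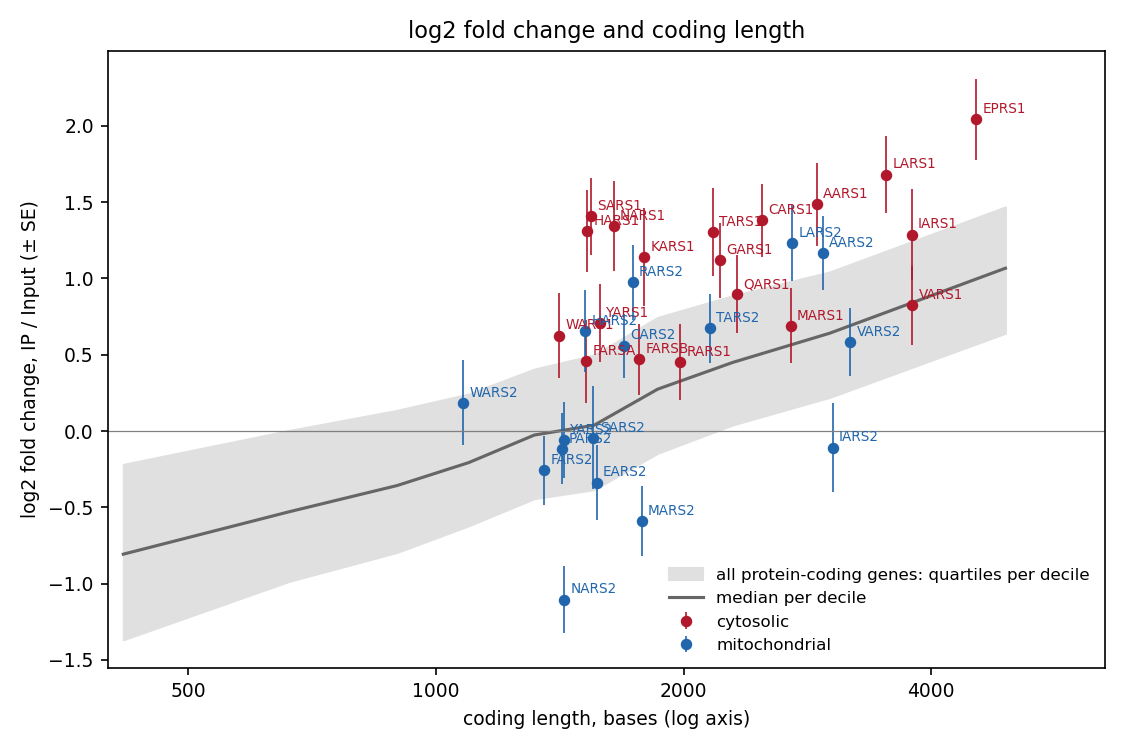
The log2 fold change with its standard error against coding length (log axis) for cytosolic (red) and mitochondrial (blue) enzymes, over the median and quartiles of all protein-coding genes in 10 classes of coding length (grey). Of the cytosolic enzymes 18 of 19, and of the mitochondrial enzymes 7 of 16, lie above the median of their class.

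Tandem GAA repeats in RNA were among the motifs examined in the study, and the canonical transcripts of the synthetases were searched for GAAGAAGAA on the sense strand. It was present in 5 of 19 cytosolic mRNAs and in 0 of 16 mitochondrial mRNAs. All 5 were enriched, as were 573 of the 1853 protein-coding genes tested that held it. Of the 11 enriched cytosolic mRNAs 5 held it, against 38.4% of all enriched protein-coding genes and 14.8% of all protein-coding genes tested. LARS1, AARS1, SARS1, NARS1, HARS1 and GARS1 were enriched and did not hold it. The reverse complement TTCTTCTTC was in 0 cytosolic and 1 mitochondrial mRNA. In EPRS1, IARS1, KARS1 and TARS1 the single occurrence lay in coding sequence and was of 3 units. These 4 are shown 5′ to 3′ in the mRNA with 30 bases from GENCODE v44 transcripts on GRCh38 and the repeat in capitals.
EPRS1, chr1:219987272-219987301, minus strand: acaaagataaGAAGAAGAAagaaaaagaaa
IARS1, chr9:92274454-92274483, minus strand: ctatgtgaagGAAGAAGAAggcacaggggt
KARS1, chr16:75636066-75636095, minus strand: ttataaatcaGAAGAAGAAtttattcatat
TARS1, chr5:33467684-33467713, plus strand: caaacaggcaGAAGAAGAAttttaatgaaa

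A match is a description of these letters and not of a binding site. In IARS1, KARS1 and TARS1 the repeat is read in the frame of GAA codons, which encode glutamate. In EPRS1 the frame is shifted, and the window continues in an adenine-rich stretch. EPRS1, the mRNA with the largest log2 fold change (2.04), and KARS1, near the smallest of the enriched (1.14), both held a single occurrence.

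Many cytosolic synthetase genes are known targets of ATF4, the transcription factor of the amino acid response, through the C/EBP-ATF response element. Its core TGATGNAA, on either strand, was searched in RefSeq promoter windows of GRCh38.p14 that run from 250 bases before to 50 after an annotated start. Such windows were at hand for 30 of the 35 genes, all but LARS1, VARS1, YARS1, AARS2 and VARS2. The core was present in 7 of 16 cytosolic genes and 1 of 14 mitochondrial genes, against 4.46% of all 27305 genes with a window and 2.81% of 10214 protein-coding genes tested. Of the 7, 6 were enriched mRNAs (AARS1, CARS1, GARS1, IARS1, NARS1 and TARS1) and 1, MARS1, was not called. EPRS1, KARS1, HARS1 and SARS1 were enriched without a match in their windows. The 8 genes are shown with 30 bases each, 5′ to 3′ on the strand of the core, and the core in capitals.
AARS1, chr16:70289675-70289704, plus strand: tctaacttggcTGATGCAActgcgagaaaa
CARS1, chr11:3057407-3057436, plus strand: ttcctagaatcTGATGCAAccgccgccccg
GARS1, chr7:30594834-30594863, minus strand: ggctcggagcaTGATGAAAtcgccgcgtaa
IARS1, chr9:92293692-92293721, plus strand: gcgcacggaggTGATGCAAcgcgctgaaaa
MARS1, chr12:57488053-57488082, minus strand: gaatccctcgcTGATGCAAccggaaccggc
NARS1, chr18:57621804-57621833, minus strand: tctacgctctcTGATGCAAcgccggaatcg
TARS1, chr5:33440956-33440985, minus strand: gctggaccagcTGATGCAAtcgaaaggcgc
YARS2, chr12:32756076-32756105, minus strand: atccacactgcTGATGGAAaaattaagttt

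The core read TGATGCAA in 6 of the 7 cytosolic genes and TGATGAAA in GARS1. These letters lie in DNA, and the libraries measured RNA in nuclei, so that the values above do not bear on the use of the element. Other genes of the amino acid response were not called with all 4 libraries and TMM scaling. Of 20 such genes tested, among them ATF4 and its targets ASNS, PSAT1, TRIB3 and SLC7A11, 0 were enriched and 0 depleted by edgeR, DESeq2 or limma voom. Over all genes tested edgeR called 10.5% enriched and 8.30% depleted. An unadjusted edgeR p below 0.05 was found in 7, and the median log2 fold change was -0.19. The share of all genes by unadjusted p was not counted. The 22.9% by adjusted p is only its lower bound. The largest in size were ASNS, asparagine synthetase, at 0.85 ± 0.29 (edgeR adjusted p = 0.0739), PYCR1, a proline synthesis enzyme, at -0.85 ± 0.23 (edgeR adjusted p = 0.0378), and PSPH, of serine synthesis, at -0.80 ± 0.28 (edgeR adjusted p = 0.0822). PYCR1 passed the p threshold but not the fold minimum. With the replicate block ASNS, PYCR1 and PSPH all passed the p threshold, as did 54.3% of all genes, and no gene of the list was called. Calls in this list appeared under other settings. With library size alone 7 of 20 were depleted, against 22.2% of all genes, and with upper-quartile scaling 1 was, against 10.5%. Genes of the list were also called in the fits without IP replicate 2, without Input replicate 1 or without Input replicate 2. The median of the list was -0.78 with library size alone and turned to 0.10 without IP replicate 1.

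The other genes around the synthetases did not share one direction. Over all genes tested 10.5% were enriched and 8.30% depleted. In lists of this size, the counts of calls below are near those shares or too few to compare with them. Of the 3 scaffold genes of the multisynthetase complex, AIMP1 was enriched, EEF1E1 depleted and AIMP2 not called. AIMP1 had 174 and 132 CPM after IP, against 87.1 and 46.6 CPM in the Inputs, with a log2 fold change of 1.19 ± 0.34 (edgeR adjusted p = 0.0474). EEF1E1, with 5.38 and 3.75 CPM after IP, against 11.9 and 10.4 CPM in the Inputs, had a log2 fold change of -1.28 ± 0.30 (edgeR adjusted p = 0.0262), and AIMP2 one of -0.30 ± 0.25 (edgeR adjusted p = 0.418). AIMP1 was not called without IP replicate 1, without Input replicate 2 or under RLE or library-size scaling, and EEF1E1 was not called without IP replicate 2. Scaffold and enzyme mRNAs of the same complex thus had values from -1.28 (EEF1E1) to 2.04 (EPRS1). Coding length was not compared for the scaffold genes or the other lists, and its part in their values was not tested. Over protein-coding genes the median was -0.81 in the shortest of 10 classes of coding length. It was 1.07 in the longest, that of EPRS1. Of 9 accessory charging genes, 0 were enriched and 2 depleted, GATC, a subunit of the mitochondrial amidotransferase that makes glutaminyl-tRNA, at -1.66 ± 0.26 (edgeR adjusted p = 0.0119), and DTD2, a tRNA proofreading enzyme, at -2.73 ± 0.39 (edgeR adjusted p = 0.0107). In the accessory list 3 of 9 had an unadjusted edgeR p below 0.05. The share of all genes is at least 22.9%, a lower bound taken from adjusted p. DESeq2 and limma voom also called 0 of the accessory genes enriched. Of 10 genes of tRNA maturation and export, 1 was enriched, ELAC2, which trims tRNA 3′ ends, at 1.25 ± 0.25 (edgeR adjusted p = 0.0185), and 1 depleted, TSEN15, a subunit of the tRNA splicing endonuclease, at -1.78 ± 0.33 (edgeR adjusted p = 0.0150). The accessory list gained an enriched call without IP replicate 2. In the maturation and export list 2 of 10 were enriched without a count filter, against 4.94% of all genes. With library size alone 0 were enriched, against 2.59%, and 2 were depleted, against 22.2%. Calls in the maturation and export list were also gained without IP replicate 2, without Input replicate 1 or without Input replicate 2.

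Elongation factors, which carry charged tRNAs to the ribosome and move it along the mRNA, were not called by edgeR, DESeq2 or limma voom. Over all genes tested edgeR called 10.5% enriched and 8.30% depleted. Of the cytosolic factors 2 of 4, and of the mitochondrial 0 of 4, had an unadjusted edgeR p below 0.05. The share of all genes is at least 22.9%, a lower bound taken from adjusted p. EEF1A1 and EEF2 lay at 0.71 ± 0.32 (edgeR adjusted p = 0.143) and 0.95 ± 0.31 (edgeR adjusted p = 0.0636), and the mitochondrial factor TUFM at 0.56 ± 0.28 (edgeR adjusted p = 0.184). The medians were 0.70 over 4 cytosolic factors and 0.40 over 4 mitochondrial factors. With the replicate block the edgeR adjusted p values of EEF1A1, EEF2 and TUFM were 0.0072, 0.00097 and 0.016. EEF1B2, TSFM and GFM2 stayed above 0.05. No factor was called with the block, under which 54.3% of all genes passed the p threshold. EEF1G was not tested and did not exceed 0.0856 CPM in any library. How its reads were assigned in the counting was not examined, so this value does not show that its RNA was absent.

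**Figure D5:**
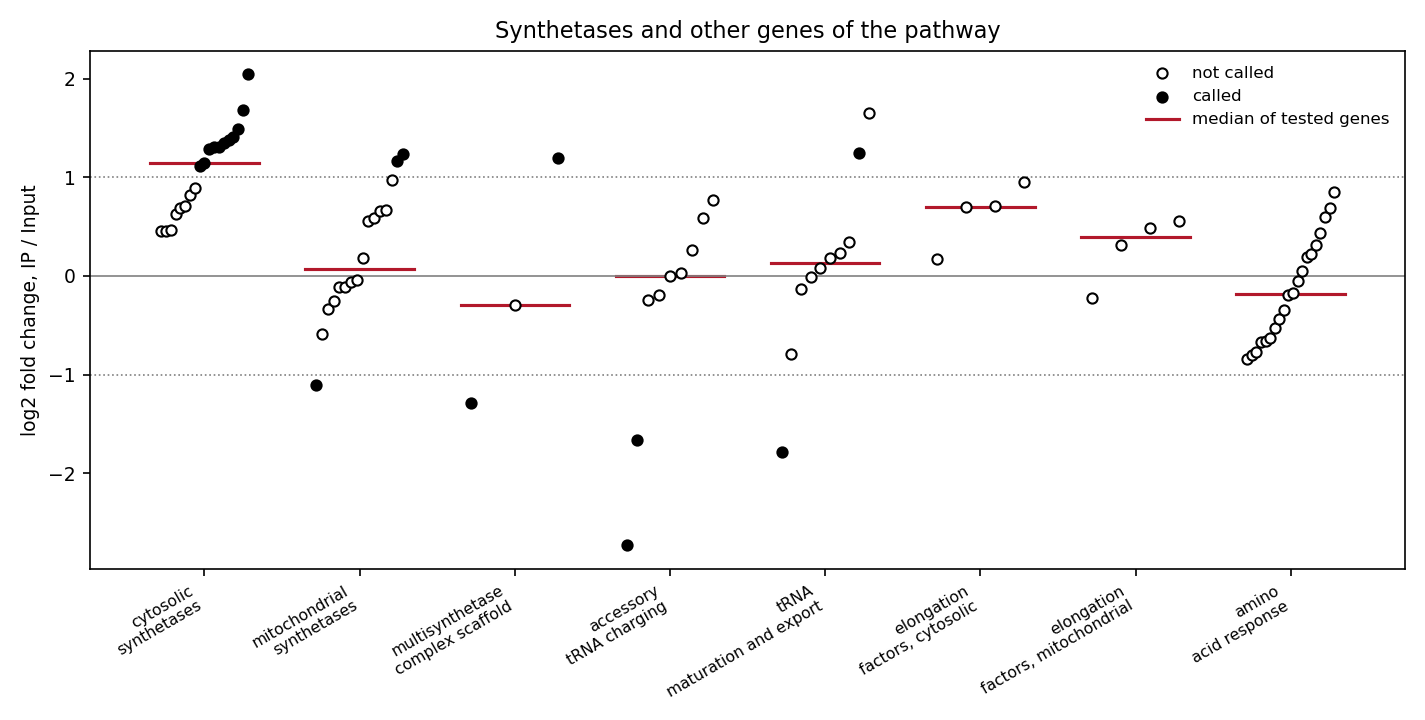
The log2 fold change of IP over Input for each gene tested (points, filled where called) in both synthetase groups and in 6 lists of related genes, with the median of each list (line) and dotted lines at 1 and -1. The cytosolic synthetases lie above 0 throughout (median 1.14), the amino acid response genes lie on both sides of it (median -0.19).

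No spike-in was described, and the level of all values moved with the scaling. With library size alone the median over all genes fell by 0.602 on the log2 scale, and with upper-quartile scaling by 0.171. With library size alone the cytosolic median was 0.53 and the mitochondrial -0.52, and 16 of 19 cytosolic genes remained above 0, all but FARSA, FARSB and RARS1. Relative to the median of all genes the cytosolic median was 1.13 with TMM and 1.12 with library size alone, and the mitochondrial 0.063 and 0.069. Over all 12 alternative fits the cytosolic value ran from 0.98 to 1.54 (without IP replicate 2) and the mitochondrial value from -0.0072 (without Input replicate 2) to 0.43 (DESeq2). With no count filter and in DESeq2, where more genes of low count enter the median of all genes, the mitochondrial values were 0.40 and 0.43. In all 12 alternative fits the 19 cytosolic genes lay above the median of all genes tested. The difference between the cytosolic and the mitochondrial median was 1.07 and ran from 0.84 without IP replicate 1 to 1.29 without IP replicate 2.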

How the data were processed

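The authors deposited unnormalized counts of reads for each Ensembl gene. According to the study's methods and the submitters' processing notes, reads were trimmed (Trimmomatic), aligned with STAR to hg19, cleared of contig reads and counted with featureCounts. The annotation release, strand setting and treatment of multiply aligned reads are not given in the sources used here. Total counts were 9213877 to 27483148 per library. Reads carry no molecular identifiers.

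Counts were tested with edgeR 4.0.16 in R 4.3.3 (quasi-likelihood, robust, TMM, filterByExpr, group only), with Benjamini-Hochberg adjustment over 14645 genes. Each standard error (SE) was the log2 fold change divided by the root of its F value, with n = 2 libraries per group. The study describes the anti-FLAG sequencing as done in duplicate, the labels name no cultures, and p-values measure the spread between these libraries. IP and Input of a number come from the same RIP in the labels, and their deviations from the group means correlated (Pearson r = 0.647 across genes), so the numbers pair the libraries. GENCODE v44 (GRCh38, another build than that of the counts) gave lengths, transcripts and positions, joined by identifier. The repeat windows of 1 gene are not reported here. The members, gene lists and tests were chosen with earlier results of these data known. All 35 members could be named. Library values were given by rule for called synthetase genes, GARS1, KARS1, EPRS1, HARS1, HARS2 and synthetase genes whose call changed, and, chosen after their values were seen, for QARS1, RARS1, FARSA, FARSB and IARS2. In the other lists up to 3 genes were named per list, besides those that identify a list. Alternatives were RLE, upper-quartile and library-size scaling, a filter of 1 CPM in 2 libraries or none, limma voom (limma 3.58.1), DESeq2 1.42.0, a replicate block, leaving out each library, and pseudocounts of 0.1 and 1 CPM. A fit that leaves out a library assumes that the lone library of its group varies like the other group.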

Additional observations from a re-analysis of the deposited data

How the results depend on the processing

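With library size alone, 380 genes were enriched and 3257 depleted in place of 1542 and 1215, 2 of 19 cytosolic and 0 of 16 mitochondrial synthetases were enriched, 2 mitochondrial ones were depleted, and the medians were 0.53 (cytosolic) and -0.52 (mitochondrial). With upper-quartile scaling 1 mitochondrial synthetase was enriched and the medians were 0.97 and -0.094. The mitochondrial median was 0.043 with RLE factors and 0.040 with at least 1 CPM in 2 libraries. The replicate block gave 1960 enriched and 1957 depleted genes. The same 14 synthetase genes were called as without the block, and it changed no other call among the 35. Leaving out 1 library gave 1291 to 1936 enriched and 846 to 1801 depleted genes, 7 (without Input replicate 2) to 11 enriched cytosolic, 2 to 3 enriched mitochondrial and 0 to 1 depleted mitochondrial synthetases, cytosolic medians of 0.95 to 1.47 and mitochondrial medians of -0.044 to 0.21.

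Spearman rho of log2 fold change over the 35 genes was 0.415 with exonic in place of coding length. Pseudocounts of 0.1 and 1 CPM moved no median replicate ratio by more than the spread between replicates. Over the 35 genes and 12 alternatives, counted per gene and alternative, 377 kept direction and call, 27 lost a call, 4 gained one and 12 changed sign. With library size alone the sign changed for FARSA (-0.16), FARSB (-0.13), RARS1 (-0.16), CARS2 (-0.041), VARS2 (-0.022) and WARS2 (-0.41). Among the fits with 1 library left out it changed without IP replicate 2 for IARS2 (0.23), PARS2 (0.048) and YARS2 (0.098), without Input replicate 1 for SARS2 (0.043) and YARS2 (0.23), and without IP replicate 1 for SARS2 (0.036). Without Input replicate 2 the values of PARS2, SARS2 and YARS2 were -0.29, -0.23 and -0.42. None of these 10 genes was called in the fit of the report. Apart from the scalings, which act by construction, the cause of these changes was not tested. FARSA, FARSB and RARS1, under the fold minimum in every fit, had edgeR adjusted p values of 0.263, 0.184 and 0.223 without and 0.0346, 0.0241 and 0.0330 with the replicate block.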
